A study of Mus musculus with 22 samples.

Results

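Nutrient absorption in the terminal ileum was followed through 10 genes for carriers of sugars, peptides and amino acids: Slc5a1, Slc2a2, Slc2a5, Slc15a1, Slc6a19, Slc6a14, Slc7a9, Slc3a1, Slc1a1 and Slc7a8. They were taken by gene symbol from the array annotation. Together they had 15 probe sets, and each gene is represented by the one that was brightest on average across the 22 arrays. They make up 10 of the 18193 genes measured. The tissue came from NOD mice, an inbred strain prone to autoimmune diabetes, a background that all groups share. PAT mice had antibiotics in pulses of therapeutic dose and STAT mice had them at a sub-therapeutic level, while control mice are labelled only as controls; the drugs, their doses and the ages are not stated in the sources used here. There were 3 PAT females, 5 PAT males, 3 STAT females, 3 STAT males, 3 control females and 5 control males, each on 1 array. Whether each array is a different animal is not said, so p-values reflect the spread between samples and part of it could be technical.

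Absorptive enterocytes take up sugars, peptides and amino acids at the brush border and release them at the basolateral side. Slc5a1 (SGLT1) carries glucose and galactose in with sodium, Slc2a5 (GLUT5) carries fructose, and Slc2a2 (GLUT2) lets sugars leave toward the blood. Slc15a1 (PEPT1) takes up di- and tripeptides with protons. Slc6a19 is the main sodium-dependent carrier of neutral amino acids at the brush border, and Slc6a14 takes up neutral and cationic amino acids with sodium and chloride. Slc7a9 is the light chain and Slc3a1 the heavy chain of the exchanger for cystine and dibasic amino acids, which is lost in cystinuria. Slc1a1 takes up glutamate and aspartate, and Slc7a8 is a basolateral exchanger of neutral amino acids.

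The promoter windows of 3 of the genes are shown because Slc7a9 and Slc3a1 encode the chains of 1 exchanger yet differed in the test, and because Slc6a14 had the largest PAT difference of the 10. Each window is the 250 bases before the RefSeq gene start on build GRCm38.p6, in the direction of the gene. The windows lie at chr7:35448842-35449091 (plus strand) for Slc7a9, chr17:85028097-85028346 (plus strand) for Slc3a1 and chrX:21714650-21714899 (plus strand) for Slc6a14. Capitals mark matches, on either strand, to 4 motifs: CAAAGTCCA for HNF4, GTTAAT for HNF1 (part of its site), AGATAA for GATA factors and TATAAA for a TATA box.
Slc7a9: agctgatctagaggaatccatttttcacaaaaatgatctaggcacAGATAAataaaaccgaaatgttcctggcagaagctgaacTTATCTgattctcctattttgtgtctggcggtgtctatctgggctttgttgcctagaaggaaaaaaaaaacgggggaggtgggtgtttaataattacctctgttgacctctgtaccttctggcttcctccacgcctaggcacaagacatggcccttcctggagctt
Slc3a1: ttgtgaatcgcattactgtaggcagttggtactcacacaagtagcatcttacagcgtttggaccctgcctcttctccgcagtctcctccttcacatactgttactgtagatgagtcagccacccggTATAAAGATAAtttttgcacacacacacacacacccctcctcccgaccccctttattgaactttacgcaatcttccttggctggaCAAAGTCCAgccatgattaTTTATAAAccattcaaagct
Slc6a14: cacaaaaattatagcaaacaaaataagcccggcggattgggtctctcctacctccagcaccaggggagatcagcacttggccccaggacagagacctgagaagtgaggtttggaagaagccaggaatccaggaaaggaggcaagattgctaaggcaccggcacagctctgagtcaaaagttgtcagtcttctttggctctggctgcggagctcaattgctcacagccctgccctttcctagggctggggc

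All 10 genes had a promoter window, and Slc7a9 had 2 entries, of which the first was used. The HNF4 motif was found in 1 of the 10 windows, that of Slc3a1 at 31 to 39 bases before the start, and in 0.384% of 32851 windows of the same length. The GATA motif was found in 2 of the 10, Slc7a9 and Slc3a1, against 9.99% of all windows. The TATA box letters were found in 1 of the 10, Slc3a1, against 12.4% of all windows, and in Slc3a1 they overlap the GATA match by a base. The HNF1 letters were found in 0 of the 10 and in 6.43% of all windows, and the Slc6a14 window held no match to any of the 4. A match is a string of letters and says nothing about binding.

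Levels are log2 expression values, so a difference of 1 is a 2-fold change. They cannot be compared between genes, because each probe set has its own brightness. Among the ileum markers, the bile acid binding protein gene Fabp6 ran from 13.93 to 14.62 over all arrays. The bile acid transporter gene Slc10a2 lay between 9.61 and 11.98, and Fgf15 between 5.11 and 11.36. The colon markers varied as well, with Muc3 between 12.37 and 13.67 and Aqp8 between 4.15 and 9.66. The brightness of such markers therefore cannot check the tissue label. Some arrays stood apart. PAT female 1 had lactase (Lct) at 10.37 against 4.18 to 4.81 on the other 21 arrays, and 8 of 10 markers of the proximal small intestine were higher there than on any other array, while its Slc10a2 level was the lowest. Among the transporters, Slc5a1, Slc2a2, Slc2a5 and Slc7a8 were at their highest on PAT female 1 and Slc6a14 and Slc7a9 at their lowest. STAT males 2 and 3 had beta-actin differences between the 3-prime and 5-prime probe sets of 0.59 and 0.60, against 0.28 to 0.42 on the other 20 arrays. On both, 5 of 8 enterocyte markers and 4 of the 10 transporters (Slc5a1, Slc15a1, Slc6a19 and Slc3a1) were below all other arrays. STAT male 1 was not ordinary either. Its mean of the 8 colon markers, 11.45, was the highest, with control male 5 next at 10.85, and its Slc6a14 level, 10.95, was the highest. Below, PAT female 1 and STAT males 2 and 3 are the 3 arrays that stand apart, and differences that moved most with them are also given without them. Leaving out STAT males 2 and 3 leaves STAT male 1 as the only STAT male, so those values for STAT males rest on 1 array.

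**Figure D1:**
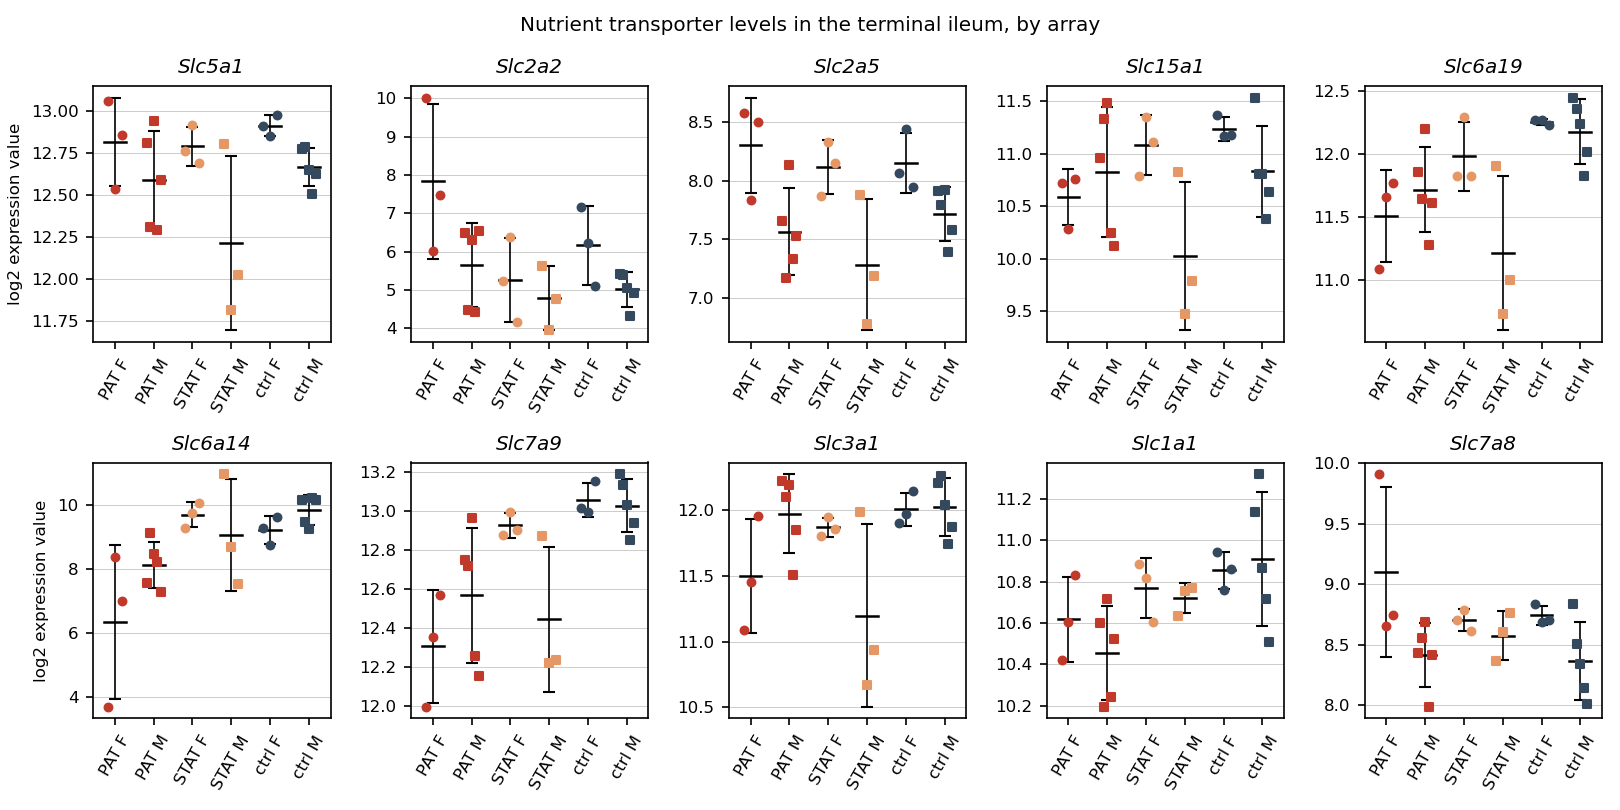
Log2 expression value (vertical axis, a separate scale for each gene) of the 10 transporters on each of the 22 arrays, with PAT, STAT and control from left to right. Circles are females (F) and squares are males (M), the bar is the group mean and the error bar the SD; Slc6a14 is at 3.71 on PAT female 1, and 4 of the transporters are lowest on STAT males 2 and 3.

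PAT was compared with control, averaged over the sexes, to ask which carriers differed after pulsed antibiotics. Of the 10 transporters, 4 were lower in PAT and 0 were higher by the limma test at an adjusted p under 0.05: Slc6a14, Slc6a19, Slc7a9 and Slc1a1, all carriers of amino acids. The background is that 11.0% of all genes were called in this comparison, with 6.38% called as lower and 4.61% as higher. None of the 3 sugar carriers passed the test, nor did the peptide carrier Slc15a1. Of the amino acid carriers, the exchanger heavy chain Slc3a1 and the basolateral exchanger Slc7a8 did not pass either. The median difference of the 10 was -0.30, against -0.0048 over all genes. In tissue RNA, fewer cells of a type and less RNA per cell cannot be told apart. The groups of 8 PAT and 8 control arrays overlapped for every one of the 10 transporters, and 1.70% of all genes had groups that did not overlap.

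Among the sugar carriers, Slc5a1, the glucose entry carrier, had 13.06, 12.54 and 12.86 in PAT females and 12.81, 12.31, 12.94, 12.29 and 12.59 in PAT males. Control females had 12.91, 12.85 and 12.98 and control males 12.77, 12.79, 12.65, 12.51 and 12.62. PAT arrays lay on both sides of the control range, and the difference of -0.09 ± 0.13 (SE) had a 95% interval from -0.35 to 0.17 (limma adjusted p = 0.747). Slc2a5, the fructose carrier, ran from 7.17 to 8.57 in PAT and from 7.39 to 8.44 in control. Its difference was 0.00 ± 0.16, with an interval from -0.34 to 0.34 (adjusted p = 1). These intervals bound the change on the array scale to less than 1.5-fold in either direction for both genes. RMA understates differences of dim probe sets.

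Slc2a2, the sugar exit carrier, had the widest range of the sugar carriers. Its probe set was dim, with a mean of 5.70 over the arrays, where array medians lay between 5.68 and 5.79. Without detection calls, its lower values may not reflect detected RNA. The Slc2a2 level was 10.02, 6.02 and 7.48 in PAT females and 6.48, 4.47, 6.29, 4.43 and 6.54 in PAT males. In control females it was 7.17, 6.22 and 5.12, and in control males 5.42, 5.39, 5.04, 4.31 and 4.91. PAT female 1 stood well above all others, 3 of the 5 PAT males were above every control male and the other two lay within the control male range. The difference of 1.15 ± 0.50 did not pass the test (adjusted p = 0.158). It was 0.61 without PAT female 1 (adjusted p = 0.485), and of the 16 fits that each left out 1 PAT or control array it passed in the one without PAT female 2 (1.61, adjusted p = 0.0416).

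The peptide carrier Slc15a1 ran from 10.28 to 10.76 in PAT females and from 10.12 to 11.48 in PAT males. It ran from 11.17 to 11.36 in control females and from 10.37 to 11.53 in control males. Every PAT female lay below every control female, whereas the males overlapped. The averaged difference was -0.33 ± 0.22 (adjusted p = 0.4), made up of -0.65 ± 0.34 in females (adjusted p = 0.288) and -0.01 ± 0.27 in males (adjusted p = 0.993). The difference between the sexes in this effect did not pass its own test (adjusted p = 0.418).

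Of the neutral amino acid carriers, Slc6a14 differed most. Its level was 3.71, 8.37 and 6.99 in PAT females and 7.57, 9.10, 8.46, 8.21 and 7.29 in PAT males. Control females had 9.27, 8.74 and 9.63, and control males 10.13, 9.44, 9.24, 10.21 and 10.15. All PAT arrays but male 2 were below every control array, and within each sex the groups did not overlap. Slc6a14 fell in PAT, with a log2 difference of -2.28 ± 0.52, a 4.87-fold lower level (limma adjusted p = 0.00719). Without PAT female 1 the difference was -1.62 (adjusted p = 0.0166). Its other probe set gave -2.30 (adjusted p = 0.00693 over all probe sets).

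Slc6a19, the main brush border carrier of neutral amino acids, had 11.09, 11.66 and 11.77 in PAT females and 11.86, 11.65, 12.20, 11.28 and 11.61 in PAT males. Control females had 12.27, 12.27 and 12.23, and control males 12.44, 12.36, 12.24, 11.82 and 12.01. PAT females were all below control females, and PAT males 1 and 3 overlapped the control males. The difference was -0.60 ± 0.16, a 1.52-fold lower level (limma adjusted p = 0.0173). Leaving out PAT female 1 gave -0.50 and lost the call (adjusted p = 0.0641), and leaving out STAT males 2 and 3 as well gave the same difference past the threshold (adjusted p = 0.0203). The dimmer of its probe sets gave -0.49 and did not pass (adjusted p = 0.202 over all probe sets), although the probe sets had a correlation of 0.92 over the arrays.

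The chains of the cystine and dibasic amino acid exchanger gave different test results. The light chain Slc7a9 had 12.00, 12.35 and 12.57 in PAT females and 12.75, 12.72, 12.96, 12.25 and 12.16 in PAT males. It had 13.02, 12.99 and 13.15 in control females and 13.19, 13.13, 13.03, 12.85 and 12.94 in control males. PAT male 3 was the single PAT array inside the control range. Slc7a9 fell to a mean of 12.44 in PAT, against 13.04 in control, a difference of -0.60 ± 0.12 (limma adjusted p = 0.00266), and it was -0.53 without PAT female 1 (adjusted p = 0.0111).

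The heavy chain Slc3a1 had 11.09, 11.45 and 11.96 in PAT females and 12.22, 12.11, 12.19, 11.51 and 11.85 in PAT males. Control females had 11.91, 11.97 and 12.15, and control males 12.21, 12.26, 12.04, 11.74 and 11.87. PAT females 1 and 2 and PAT male 4 lay below all controls and the other PAT arrays lay within the control range. The difference of -0.28 ± 0.16 did not pass (adjusted p = 0.315). Whether the chains differed in their response was not tested.

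Slc1a1, the glutamate and aspartate carrier, had 10.42, 10.60 and 10.83 in PAT females and 10.60, 10.19, 10.72, 10.24 and 10.52 in PAT males. Control females had 10.94, 10.76 and 10.86, and control males 11.14, 11.32, 10.87, 10.71 and 10.51. PAT female 1 and PAT males 2 and 4 were below every control array and the other arrays overlapped. The difference of -0.34 ± 0.11, a 1.27-fold lower level, was just past the threshold (limma adjusted p = 0.0411). It stayed past the threshold in 6 of the 16 fits that each left out a PAT or control array, with an adjusted p of up to 0.122, reached without PAT female 1. Its 3 probe sets gave -0.34, -0.34 and -0.40, with adjusted p-values over all probe sets of 0.0231, 0.0505 and 0.0191.

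Slc7a8, the basolateral exchanger, was at 9.91, 8.65 and 8.74 in PAT females and between 7.99 and 8.69 in PAT males. It was at 8.83, 8.69 and 8.71 in control females and between 8.01 and 8.83 in control males. PAT female 1 was alone above all other arrays. The difference was 0.20 ± 0.16 (adjusted p = 0.48), and 0.00 without that array (adjusted p = 0.996).

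An RNA measure and tissue markers differed between PAT and control beside the 4 calls. The Gapdh difference between the 3-prime and 5-prime probe sets averaged -0.12 ± 0.06 in PAT and -0.20 ± 0.06 in control (SD, n = 8 each). With this difference as a covariate, none of the 4 calls was kept: Slc6a14 gave -1.50 (adjusted p = 0.154), Slc7a9 -0.37 (adjusted p = 0.0771), Slc6a19 -0.29 (adjusted p = 0.352) and Slc1a1 -0.34 (adjusted p = 0.175). With the beta-actin end difference as the covariate, Slc6a14 (-2.02, adjusted p = 0.0061), Slc7a9 (-0.52, adjusted p = 0.00042) and Slc6a19 (-0.50, adjusted p = 0.00736) stayed past the threshold and Slc1a1 did not (-0.34, adjusted p = 0.0528). Of the 10 proximal markers, 3 rose in PAT (Fabp1, Apoa4 and Tm4sf5) and 0 fell, where 4.61% of all genes were called as higher and 6.38% as lower. The mean of the proximal list ran from 7.64 to 9.49 in PAT and from 7.35 to 7.71 in control. Of the 7 ileum markers, 2 rose (Fgf15 and Fabp6) and 1 fell (Muc13), and the list mean ran from 11.87 to 12.66 in PAT and from 11.61 to 12.16 in control. Of the 8 colon markers, 0 rose and 2 fell (Saa1 and Ggh), and that list ran from 7.99 to 10.01 in PAT and from 9.17 to 10.85 in control. Of the 8 enterocyte markers, 1 rose (Apoa4), and the list mean ran from 12.24 to 12.84 in PAT and from 12.25 to 12.53 in control. Of the 6 T cell markers, 2 fell (Gzma and Gzmb), and that list ran from 5.30 to 5.88 in PAT and from 5.88 to 6.18 in control. Lists beyond these also held called genes. The crypt marker Ascl2 gave -0.58 ± 0.13 (limma adjusted p = 0.00607). The crypt list ran from 8.90 to 9.91 in PAT and from 9.32 to 9.62 in control. The follicle marker Cxcl13 gave 0.72 ± 0.23 (adjusted p = 0.0486). In males the Paneth cell markers Pla2g2a (-0.82, adjusted p = 0.0171) and Mmp7 (-0.54, adjusted p = 0.0492) were called as lower. The part of these markers in the transporter differences was not tested.

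**Figure D2:**
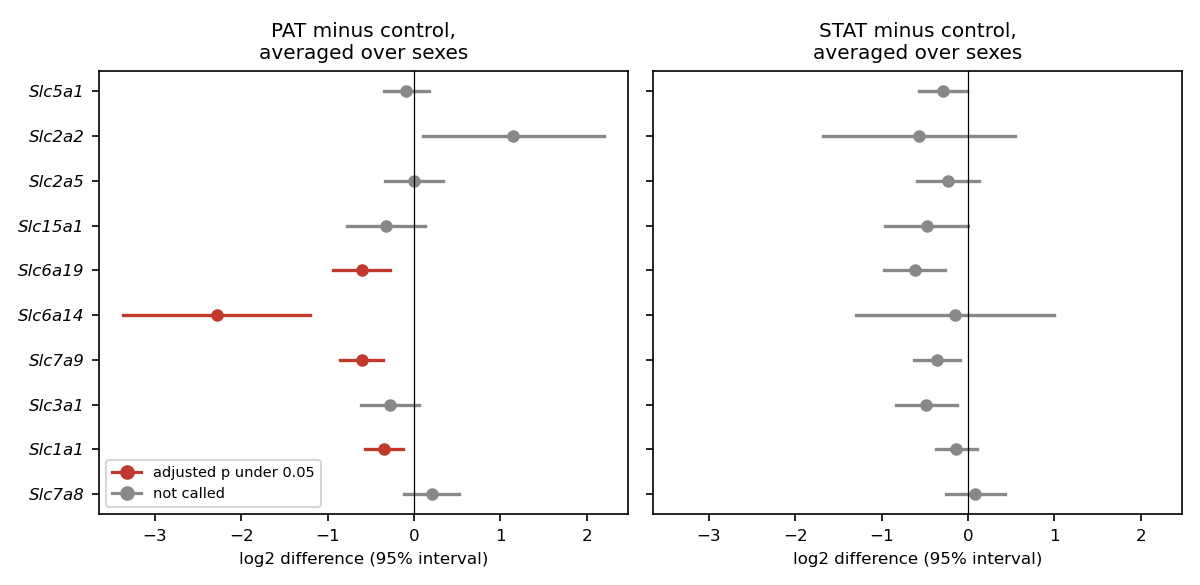
Log2 difference from control, averaged over the sexes, for PAT (left panel) and STAT (right panel), with points for the limma estimate and bars for its 95% interval. Red marks an adjusted p under 0.05, which in the PAT panel are Slc6a19, Slc6a14, Slc7a9 and Slc1a1 and in the STAT panel none.

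Within males, PAT against control called 1 of the 10, Slc1a1, with -0.45 ± 0.13 (limma adjusted p = 0.0338), where 9.02% of all genes were called and 6.68% were called as lower. In Slc6a14 the 5 PAT and 5 control males did not overlap, yet the difference of -1.71 ± 0.64 did not pass (adjusted p = 0.0967). Of all genes, 7.04% had groups of males that did not overlap. Both results depended on the probe set. The other Slc6a14 probe set gave -2.10 and passed (limma adjusted p = 0.0465 over all probe sets). The Slc1a1 probe sets gave -0.45, -0.43 and -0.31, with adjusted p-values over all probe sets of 0.0416, 0.0468 and 0.107. Slc7a9 gave -0.46 ± 0.15 (adjusted p = 0.0539) and Slc6a19 -0.46 ± 0.20 (adjusted p = 0.147) in males. When STAT males 2 and 3 and PAT female 1, which add to the spread that all groups share, were left out, Slc6a14 (adjusted p = 0.00292) and Slc7a9 (adjusted p = 0.0256) passed in males at the same differences. A fit on the PAT and control males alone called Slc6a14 (adjusted p = 0.00823) and not Slc1a1 (adjusted p = 0.0955). The male call of Slc1a1 was kept in 4 of the 10 fits that left out 1 array, and Slc7a9 passed without PAT male 1 (adjusted p = 0.0435) or PAT male 3 (adjusted p = 0.0186).

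Within females, PAT against control called 1 of the 10, Slc7a9, with -0.75 ± 0.19 (limma adjusted p = 0.0351), where 3.35% of all genes were called and 1.08% were called as lower. Slc6a14 gave -2.86 ± 0.82 (adjusted p = 0.0573) and Slc6a19 -0.75 ± 0.25 (adjusted p = 0.0921). The PAT and control females did not overlap in 4 of the 10 (Slc15a1, Slc6a19, Slc6a14 and Slc7a9), but 27.9% of all genes had groups of females that did not overlap. Without PAT female 1, Slc7a9 was at -0.59 and was not called (adjusted p = 0.162). It was not called either without PAT female 2 or any 1 of the control females (adjusted p of 0.0726 to 0.135), and Slc6a14 was at -1.53 without PAT female 1 (adjusted p = 0.266) and at -3.86 without PAT female 2, where it passed (adjusted p = 0.0258). Slc2a2 gave 1.67 ± 0.79 in females (adjusted p = 0.235), and 0.58 without PAT female 1 (adjusted p = 0.743). The female and male effects of PAT were compared directly, and 0 of the 10 differed. The unadjusted p was under 0.05 for 0 of the 10 and for 3383 genes. Of all genes, 0.00550% were called in that test. The female and male effects of STAT likewise differed in 0 of the 10 and in 0% of all genes, with unadjusted p under 0.05 for 0 of the 10.

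STAT was compared with control to ask whether the sub-therapeutic regimen differed as well. Averaged over the sexes, 0 of the 10 transporters and 0 of all genes were called by limma, a background of 0%. The unadjusted p was under 0.05 for 4 of the 10 transporters and for 2391 of the 18193 genes. The difference was negative for 9 of the 10, with a median of -0.32 against -0.0039 over all genes. PAT and STAT were set against the same control arrays, so their differences are not independent.

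Slc6a19 had 11.82, 12.29 and 11.82 in STAT females and 11.90, 10.74 and 11.01 in STAT males, against 12.23 to 12.27 in control females and 11.82 to 12.44 in control males. STAT males 2 and 3 were below all other arrays and the other STAT arrays lay within the control range. The difference was -0.62 ± 0.17 (limma adjusted p = 0.223), next to -0.60 in PAT. Without STAT males 2 and 3, which leaves STAT male 1 as the only STAT male, it was -0.27.

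Slc3a1 had 11.80, 11.95 and 11.86 in STAT females and 11.99, 10.67 and 10.94 in STAT males, against 11.91 to 12.15 in control females and 11.74 to 12.26 in control males. The same STAT males 2 and 3 stood apart, and the rest overlapped. The difference was -0.48 ± 0.17 (adjusted p = 0.266), and -0.09 without those arrays. Slc7a9 gave -0.36 ± 0.13 (adjusted p = 0.27) and -0.14 without them. Slc15a1 gave -0.48 ± 0.23 (adjusted p = 0.381) and -0.08 without them. Slc5a1 gave -0.29 ± 0.13 (adjusted p = 0.359) and 0.01 without them. The other Slc5a1 probe set did not show this fall, with -0.03 averaged over the sexes and 0.05 in STAT males. The Slc5a1 probe sets had a correlation of 0.66 over the arrays.

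Slc6a14, the gene with the largest PAT difference, had 9.28, 9.74 and 10.05 in STAT females and 10.95, 8.68 and 7.54 in STAT males. Only STAT males 2 and 3 were below the control arrays, whose lowest was 8.74, and STAT male 1 was above all of them. The STAT difference was -0.15 ± 0.55 (adjusted p = 0.942). Without STAT males 2 and 3, with STAT male 1 as the only STAT male, it was 0.80 ± 0.61. The other transporters gave -0.57 ± 0.53 (Slc2a2), -0.23 ± 0.17 (Slc2a5), -0.14 ± 0.11 (Slc1a1) and 0.08 ± 0.16 (Slc7a8), with adjusted p of 0.582 or more. Without STAT males 2 and 3 these were -0.14, 0.07, -0.18 and -0.02 in the same order.

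In STAT males 0 of the 10 were called and 0% of all genes, with unadjusted p under 0.05 for 5 of the 10 and for 2852 genes. The differences from control males with the smallest p were -0.96 ± 0.23 for Slc6a19 (limma adjusted p = 0.108), -0.83 ± 0.23 for Slc3a1 (adjusted p = 0.12) and -0.58 ± 0.17 for Slc7a9 (adjusted p = 0.123). Slc15a1 gave -0.80 ± 0.31 (adjusted p = 0.205) and Slc6a14 -0.78 ± 0.74 (adjusted p = 0.675). With the beta-actin end difference as a covariate, Slc6a19 was at -0.35, Slc3a1 at -0.11, Slc7a9 at -0.11, Slc15a1 at -0.05 and Slc6a14 at 0.73. With the Gapdh end difference they were at -0.52, -0.36, -0.25, -0.31 and 0.34 in the same order. What these end differences reflect was not tested. Without STAT males 2 and 3 only STAT male 1 was compared with the control males. These differences were then -0.27 for Slc6a19, -0.04 for Slc3a1, -0.15 for Slc7a9, -0.0080 for Slc15a1 and 1.11 for Slc6a14. The calls depended on STAT male 1: without it, 6 of the 10 were called as lower in males and 4 averaged over the sexes. How many of all genes were called without it is not given here, so these counts have no background to be read against. Array weights, which gave STAT males 2 and 3 weights of 1.68 and 2.82 and STAT male 1 a weight of 0.32, called 7 in males and 5 averaged over the sexes. Array weights also called many genes outside the 10, as counted in the last section. In STAT females 0 of the 10 and 0% of all genes were called, with unadjusted p under 0.05 for 0 of the 10 and 602 genes, and the differences lay between -0.91 and 0.48. The mean of the 8 enterocyte markers was 11.31 and 11.81 on STAT males 2 and 3, against 12.20 or more on the other arrays; its part in these differences was not tested.

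The regimens were also set against each other. Averaged over the sexes, PAT against STAT called 1 of the 10, Slc6a14, where 5.88% of all genes were called and 2.98% were called as lower. Slc6a14 was lower in PAT, with a difference of -2.13 ± 0.55, a fold of 4.38 (limma adjusted p = 0.0249). It was -1.47 without PAT female 1 (adjusted p = 0.048), and leaving out STAT female 3 lost the call (-2.04, adjusted p = 0.062). Without STAT males 2 and 3, with STAT male 1 as the only STAT male, it was -3.08. The dim Slc2a2 gave 1.72 ± 0.53 and did not pass (adjusted p = 0.061), but passed in 5 of the 14 fits that left out 1 array, those without STAT female 2, PAT female 2, STAT male 1, PAT male 2 or PAT male 4 (adjusted p of 0.0151 to 0.0486).

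In males, Slc3a1 was called as higher in PAT than in STAT, with 0.78 ± 0.23 (limma adjusted p = 0.0384), where 8.71% of all genes were called and 3.47% were called as higher. The call was lost without STAT male 2 alone (0.51, adjusted p = 0.281) and without STAT male 3 alone (0.65, adjusted p = 0.209). Without both, STAT male 1 was the only STAT male and the difference was -0.01 ± 0.26. The call was also lost without PAT male 1, 2 or 3 (adjusted p of 0.0705 to 0.0802). Without STAT male 1 a total of 4 were called, all higher in PAT, but the share of all genes called in that fit is not given here. In females, 0 of the 10 were called, against 0.863% of all genes, with Slc6a14 nearest at -3.33 ± 0.82 (adjusted p = 0.057); it was at -2.01 without PAT female 1 (adjusted p = 0.21), and it passed without PAT female 2 (-4.34, adjusted p = 0.0169) and without STAT males 2 and 3 (adjusted p = 0.0314). PAT and STAT females did not overlap in 4 of the 10, where 22.4% of all genes did not overlap in that comparison.

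Among controls, females and males were compared, and 0 of the 10 differed by the limma test, against 0.0550% of all genes. Slc5a1 and Slc2a5 did not overlap between the sexes, with all 3 control females above all 5 control males, yet the differences of 0.25 ± 0.18 (adjusted p = 0.613) and 0.43 ± 0.23 (adjusted p = 0.456) did not pass. Of all genes, 9.53% did not overlap in this comparison. When the 6 groups were put in order of their means, each group overlapped its neighbour in that order for all 10 transporters. STAT males had the lowest mean for Slc5a1, Slc2a2, Slc2a5, Slc15a1, Slc6a19 and Slc3a1, and PAT females for Slc6a14 and Slc7a9. PAT females had the highest mean for Slc2a2, Slc2a5 and Slc7a8, and control females for Slc5a1, Slc15a1, Slc6a19 and Slc7a9.

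Over the 22 arrays the transporters fell into more than 1 pattern. Of the 45 pairs, 3 had a correlation over 0.8 and 9 a negative one. The highest were 0.90 between Slc6a19 and Slc7a9, 0.88 between Slc6a19 and Slc3a1, and 0.88 between Slc5a1 and Slc2a5. The exchanger chains Slc7a9 and Slc3a1 had 0.79. The lowest were -0.71 between Slc2a2 and Slc6a14 and -0.62 between Slc6a14 and Slc7a8. Without PAT female 1 and STAT males 2 and 3 these became 0.88, 0.66, 0.79, 0.66, -0.55 and -0.09. The points share the treatment groups and the arrays that stand apart, so these are descriptions.

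**Figure D3:**
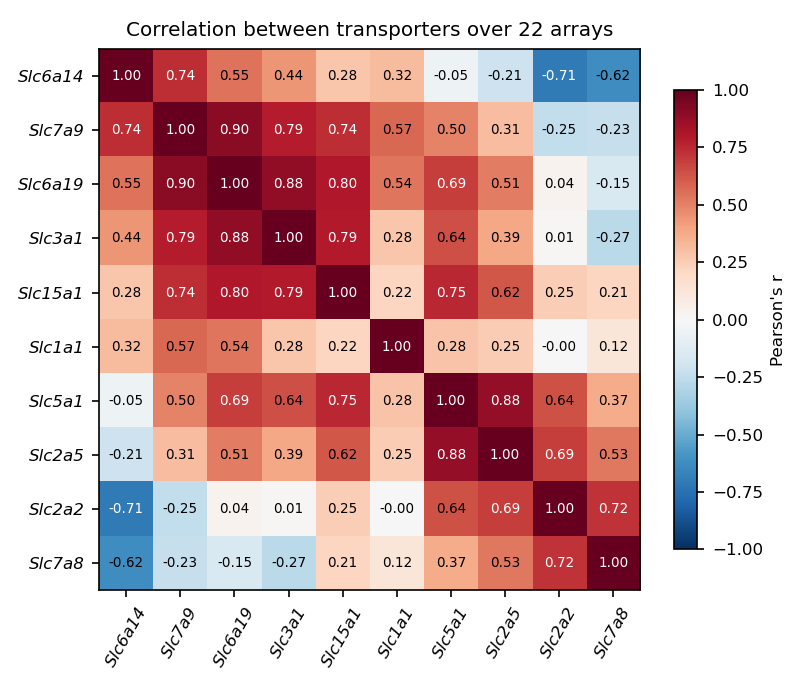
Pearson correlation between each pair of the 10 transporters over 22 arrays, as colour and number. The amino acid carriers Slc6a14, Slc7a9, Slc6a19 and Slc3a1 are positively correlated with each other, and Slc6a14 is negatively correlated with Slc2a2 (-0.71) and Slc7a8 (-0.62). Without PAT female 1 and STAT males 2 and 3, Slc6a14 had 0.65 with Slc7a9, 0.41 with Slc6a19 and 0.11 with Slc3a1. It then had -0.55 with Slc2a2 and -0.09 with Slc7a8.

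The gene most like each transporter was sought by Pearson correlation over the 22 arrays among all genes whose mean reached 6 or more. Slc7a9 was closest to Hpgd, a prostaglandin-degrading enzyme gene (0.98), and Sectm1b (0.97). Slc6a19 was closest to Chp2 and Dgka (0.96 each), and Slc3a1 to Cdhr2, a brush border cadherin gene (0.97), and Abhd5 (0.96). Slc6a14 was closest to St6galnac6 (0.96) and Reg3b, an antimicrobial lectin gene (0.95). Slc5a1 was closest to Cbr1 and Xpnpep1 (0.93 each) and Slc15a1 to H2-Bl and Vapa (0.92 each). Slc2a2 was closest to Adh4 (0.91) and Leap2 (0.90), Slc7a8 to Bpnt1 (0.89) and Fam151a (0.86), Slc1a1 to Adcy8 and Exoc1 (0.88 each), and Slc2a5 to Aqp11 (0.86) and Phykpl (0.85).

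**Figure D4:**
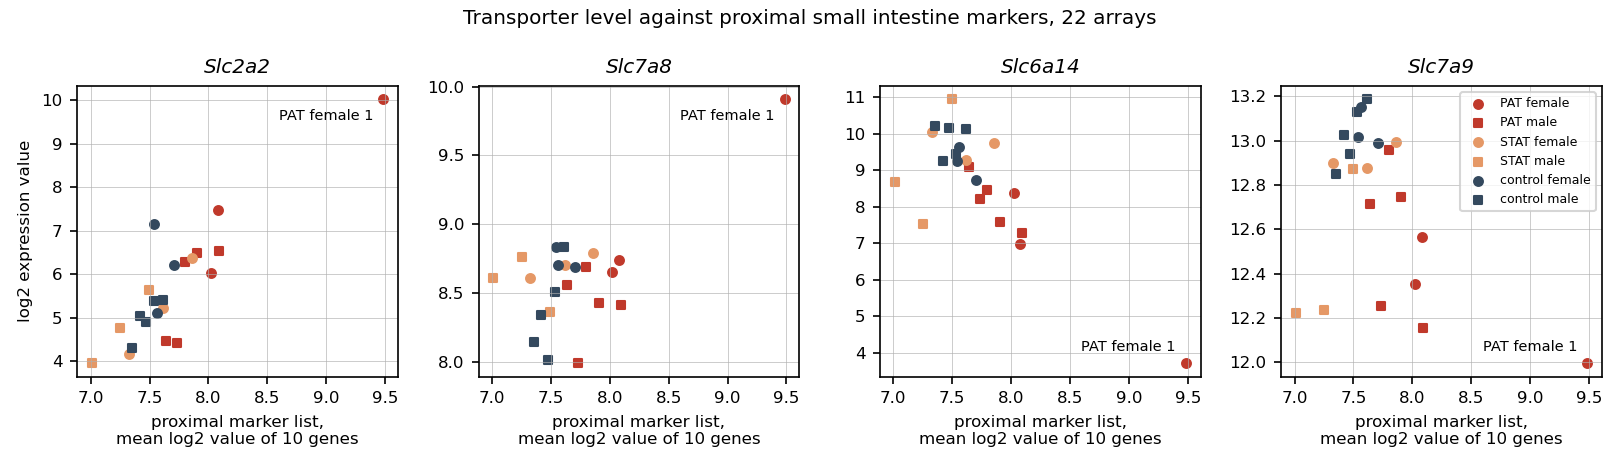
Log2 expression value of Slc2a2, Slc7a8, Slc6a14 and Slc7a9 (vertical axes) against the mean log2 value of 10 markers of the proximal small intestine (horizontal axis), 1 point per array. PAT female 1, at a list mean of 9.49, is highest for Slc2a2 and Slc7a8 and lowest for Slc6a14 and Slc7a9; the other PAT arrays lie between 7.64 and 8.09.

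Other carriers were compared in the same way, against the 4.61% of all genes called as higher in PAT and the 6.38% called as lower. Of 18 other sugar carriers, 2 rose and 0 fell, averaged over the sexes. Slc2a1 (GLUT1), a widely expressed glucose carrier, ran from 9.14 to 11.18 with a median of 10.15 in PAT and from 8.73 to 9.47 with a median of 8.98 in control. The PAT median was above the highest control array although the groups overlapped, and the difference was 0.97 ± 0.24 (limma adjusted p = 0.0114). Slc5a3, a sodium myo-inositol carrier, rose by 0.60 ± 0.11 (adjusted p = 0.00146).

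Of 45 other amino acid and peptide carriers, 7 rose and 6 fell in PAT, averaged over the sexes. Slc6a6, the taurine carrier, had 12.09 to 12.72 with a median of 12.45 in PAT and 11.81 to 12.05 with a median of 11.92 in control. These groups did not overlap, and the difference was 0.50 ± 0.08 (limma adjusted p = 0.000238). Slc7a5, the light chain of a large neutral amino acid exchanger, rose by 0.80 ± 0.15 (adjusted p = 0.00146). Slc7a1, a cationic amino acid carrier, rose by 0.58 ± 0.14 (adjusted p = 0.00874), Slc43a1 by 0.50 ± 0.11 (adjusted p = 0.00652) and Slc7a6 by 0.36 ± 0.07 (adjusted p = 0.00309). Slc38a10 fell by 0.27 ± 0.05 on the log2 scale (adjusted p = 0.00234). The median difference was -0.02 over the other sugar carriers and -0.01 over the other amino acid and peptide carriers, against -0.30 over the 10 transporters.

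**Figure D5:**
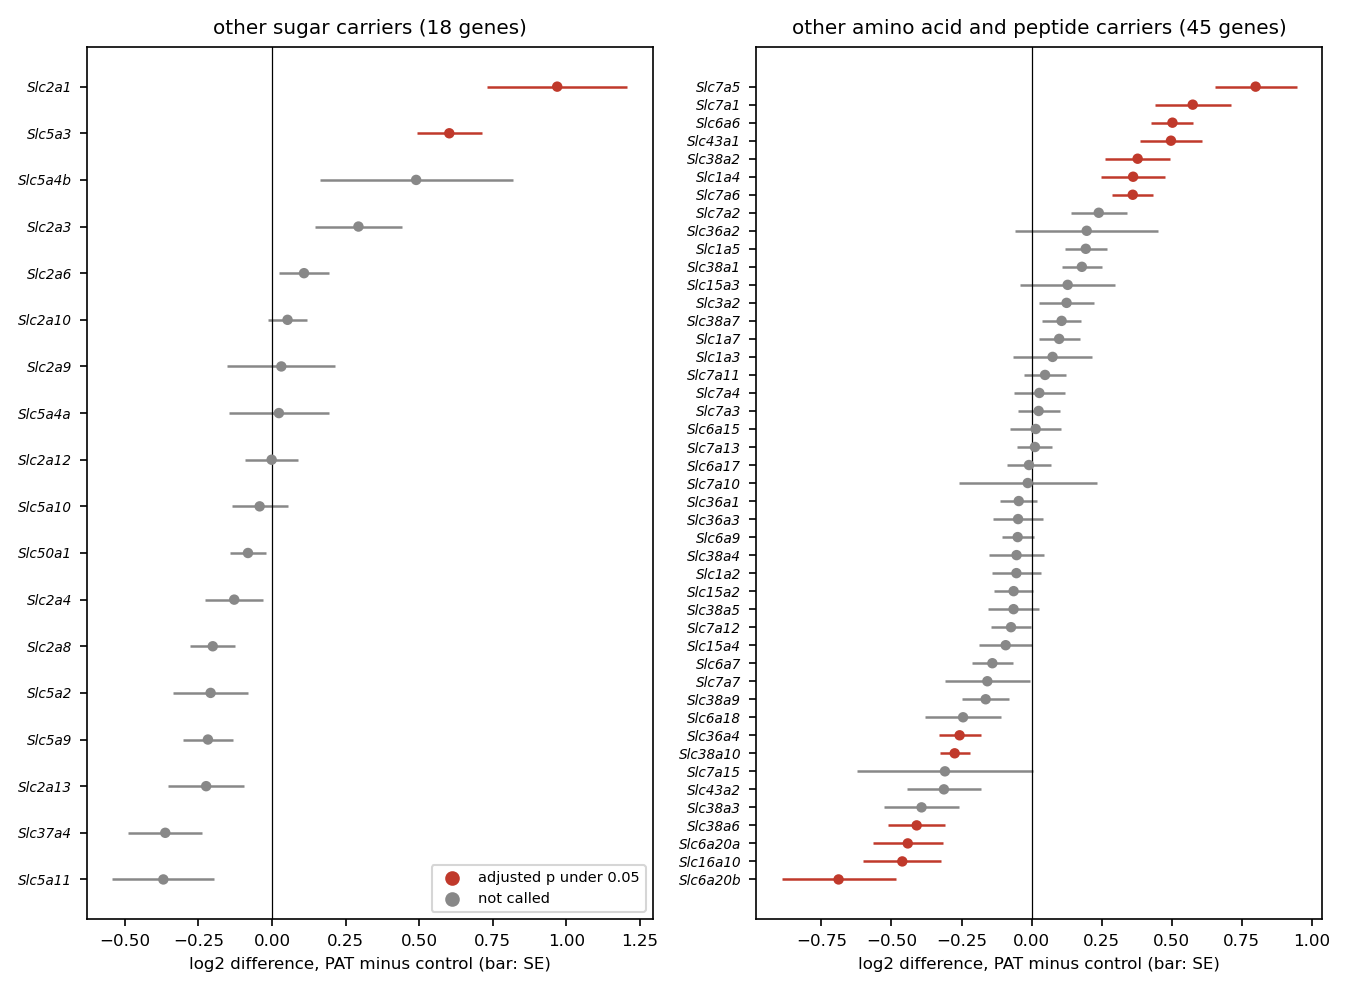
Log2 difference between PAT and control, averaged over the sexes, for 18 other sugar carriers (left) and 45 other amino acid and peptide carriers (right), with bars for the SE and genes ordered by the difference. Red marks an adjusted p under 0.05, 2 genes on the left, both higher, and 13 on the right, of which 7 are higher and 6 lower.

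Of 7 genes for partners and ion drivers of the carriers, 0 rose and 2 fell in PAT, where 4.61% of all genes were called as higher and 6.38% as lower. Sgk1, a kinase known to raise the activity of sodium-coupled carriers, ran from 11.85 to 13.01 in PAT and from 12.95 to 13.18 in control. Its difference was -0.82 ± 0.14 (limma adjusted p = 0.000789). Pdzk1, a scaffold of brush border carriers, gave -0.64 ± 0.20 (adjusted p = 0.046). Of 10 genes that handle sugars within the cell, 1 rose and 2 fell. G6pc, the glucose-6-phosphatase that frees glucose for export, ran from 6.21 to 8.04 in PAT and from 8.87 to 10.39 in control, without overlap, and its difference was -2.73 ± 0.28, 6.62-fold lower (adjusted p = 4.83e-06). Hk2, a hexokinase, rose by 1.41 ± 0.29 (adjusted p = 0.00388), and Pklr, a pyruvate kinase, fell by 0.34 ± 0.10 on the log2 scale (adjusted p = 0.0265). Of 9 transcription factors of enterocytes, 0 rose and 0 fell. In STAT against control, 0 genes of any of these lists were called, as for all genes.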

How the data were processed

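Terminal ileum RNA of 22 NOD mouse samples was hybridised to 1-colour Affymetrix arrays after biotin labelling, per the labels' protocols. The authors deposited 1 log2 value per probe set and array, computed by RMA (affy) per the submitters' processing notes. RMA is a background correction, quantile normalization and probe summary with no detection calls. Software versions and scan dates are not stated in the sources used here. The table held 45101 probe sets, of which 34945 had 1 gene symbol in the platform annotation; 932 with several and 9160 with none were not named, and 64 array controls were left out. The number of arrays limits the precision.

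For the 18193 genes, limma 3.58.1 in R 4.3.3 estimated a mean for each of the 6 groups from all 22 arrays together (16 residual degrees of freedom, 4.88 added by empirical Bayes). P-values are two-sided and adjusted by Benjamini-Hochberg over all genes within a comparison, with calls under 0.05; averages over the sexes weight both sexes equally. Errors of differences are SE, those of levels SD. The 10 transporters, the other gene lists, the rule for named genes (all 10 transporters in comparisons with control, up to 6 called genes of each carrier or sugar list with the smallest p, and the 2 genes most like each transporter) and the tests were chosen with earlier results of these data known. The fit was tested on simulated data with known changes. Promoter windows come from RefSeq. Alternatives covered probe sets, dim genes, scaling, arrays in the fit, array weights, an intensity trend, RNA end differences, a term for the 6 arrays with the highest title numbers, and left-out arrays; leaving out PAT female 1 with STAT males 2 and 3 was chosen after seeing the data.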

Additional observations from a re-analysis of the deposited data

How the results depend on the processing

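Over the 10 transporters and 12 comparisons, 120 log2 differences were recomputed under the alternatives, giving 2808 values. Of these, 2687 kept their direction, or were not called either way, and their side of the threshold, 51 lost a call, 68 gained one and 2 reversed; 177 uncalled differences changed sign. The reversed value is that of Slc3a1 in PAT against STAT males, which was -0.010 without STAT males 2 and 3, also with PAT female 1 left out. STAT male 1 was then the only STAT male, and the SE was 0.26 and 0.23 in these fits. Where counts of called transporters changed, the cause was not tested.

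For PAT against control averaged over the sexes (4 called), 0 were called with the Gapdh end difference as a covariate and 2 to 4 when 1 array was left out; Slc1a1 was also lost with columns centred on their medians (adjusted p = 0.0574), with only the groups compared (adjusted p = 0.066), with array weights (adjusted p = 0.0835), with the beta-actin covariate (adjusted p = 0.0528), without STAT males 2 and 3 (adjusted p = 0.0503) and without the 3 arrays that stand apart (adjusted p = 0.136). For PAT against control males (1 called), 2 were called with genes of a mean of at least 6, with repeated quantile normalization, with an intensity trend, with the beta-actin covariate and without STAT males 2 and 3; 3 with a term for the 6 highest title numbers and without the 3 arrays that stand apart; 0 with array weights and with the Gapdh covariate; 0 to 2 leaving out 1 array; and 1 with only the groups compared, Slc6a14 in place of Slc1a1. For PAT against control females (1 called), 2 were called with genes of a mean of at least 6, with array weights and without STAT males 2 and 3; 3 with the title term; 0 with the Gapdh covariate and without the 3 arrays; and 0 to 1 leaving out 1 array. For STAT against control (0 called), array weights called 5 averaged over the sexes and 7 in males, and leaving out 1 array gave 0 to 4 and 0 to 6. For PAT against STAT averaged over the sexes (1 called), 0 were called with only the groups compared, 2 with array weights, the beta-actin covariate and the title term, and 0 to 3 leaving out 1 array. In PAT against STAT males (1 called), 0 were called with median centring, only the groups compared, the beta-actin covariate and the title term, 4 with array weights, and 0 to 4 leaving out 1 array. In PAT against STAT females (0 called), 1 was called with genes of a mean of at least 6, repeated quantile normalization and without STAT males 2 and 3, 2 with array weights, the beta-actin covariate and the title term, and 0 to 1 leaving out 1 array.

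Over all genes, PAT against control called 1999 averaged over the sexes, but 756 with the Gapdh covariate and 3287 probe sets singly. It called 1641 in males (426 higher and 1215 lower), but 951 with only the groups compared, 1050 with the Gapdh covariate and 592 higher and 803 lower under repeated quantile normalization. It called 610 in females (413 higher and 197 lower), but 1524 with array weights, 102 higher and 40 lower with the Gapdh covariate, 947 with the title term, 153 without the 3 arrays, and 340 higher and 372 lower under repeated quantile normalization. STAT against control called 0, but 2288 averaged over the sexes and 4069 in males with array weights. No paired analysis was possible because the arrays carry title numbers that no group shares with another.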
